A study of Rattus norvegicus with 6 samples.

Results

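The core circadian clock genes are 10 genes taken here as a set: Per1, Per2, Per3, Cry1, Cry2, Arntl (now named Bmal1), Clock, Npas2, Nr1d1 and Dbp. Every non-control probe whose transcript accession belongs to one of them was kept, which gave 17 probes, and all 10 genes were among the 11032 genes tested in the series. The brains came from 6 male rats on a Wistar background, aged 15 weeks and kept sedentary. Of these, 3 belonged to the mutant SPORTS line, which is known for spontaneous wheel running, and 3 were wild type. Total RNA of each rat was labelled with Cy3 and hybridised to 1 Agilent array, so a group is 3 arrays. On each array 20323 to 23261 of 30367 probes gave a signal well above background. The labels give neither the brain region nor the time of day at which tissue was taken, and name no causal allele of the line. They do not say whether the rats of a line were littermates.

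The mammalian clock is a transcriptional loop. CLOCK, or its paralogue NPAS2 in the forebrain, pairs with ARNTL and activates Per and Cry genes, whose proteins then repress that pair. In a further loop REV-ERB proteins such as that of Nr1d1 repress Arntl, and the PAR bZIP factor DBP carries rhythm to target genes through D-box sites. In most tissues the transcripts of Per genes, Nr1d1 and Dbp peak at a different phase from that of Arntl, and their levels in 1 tissue sample therefore depend on the hour of sampling.

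These loops are written in short promoter elements, and 3 of the members carry one close to the transcription start. The windows run from 250 bases before to 50 after a RefSeq start in assembly GRCr8, 5′ to 3′ on the strand of the gene, and capitals mark a match on either strand. Arntl (chr1:176766078-176766377 (plus strand)) held TAGGTCA, the core of the element bound by REV-ERB and ROR factors, at position -16 from the start. Per2 (chr9:99496944-99497243 (minus strand)) held a D-box, searched as TTANGTAA, at position -192. The window of Nr1d1 at chr10:84229405-84229704 (minus strand) held the E-box CACGTG, the site of the CLOCK and ARNTL pair, at position -191. Npas2 (chr9:48959315-48959614 (plus strand)) is shown because it is the member that passed the test, and its window held none of the 3.
Arntl: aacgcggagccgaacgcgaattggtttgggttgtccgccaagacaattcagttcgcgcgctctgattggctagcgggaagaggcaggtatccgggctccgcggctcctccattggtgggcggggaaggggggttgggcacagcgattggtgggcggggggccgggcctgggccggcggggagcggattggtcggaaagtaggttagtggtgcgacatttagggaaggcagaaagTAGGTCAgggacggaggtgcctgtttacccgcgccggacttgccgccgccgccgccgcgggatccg
Per2: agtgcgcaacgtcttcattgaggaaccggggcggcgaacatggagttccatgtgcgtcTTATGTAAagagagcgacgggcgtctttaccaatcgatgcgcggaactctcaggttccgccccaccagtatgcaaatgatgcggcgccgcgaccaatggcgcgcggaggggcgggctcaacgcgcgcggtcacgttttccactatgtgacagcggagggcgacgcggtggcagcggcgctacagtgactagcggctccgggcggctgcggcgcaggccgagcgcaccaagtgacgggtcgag
Nr1d1: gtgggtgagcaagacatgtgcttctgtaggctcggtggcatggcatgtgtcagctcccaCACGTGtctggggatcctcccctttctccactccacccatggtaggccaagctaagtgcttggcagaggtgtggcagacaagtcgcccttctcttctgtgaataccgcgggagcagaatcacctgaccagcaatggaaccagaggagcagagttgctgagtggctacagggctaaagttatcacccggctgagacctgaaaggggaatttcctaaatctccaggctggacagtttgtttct
Npas2: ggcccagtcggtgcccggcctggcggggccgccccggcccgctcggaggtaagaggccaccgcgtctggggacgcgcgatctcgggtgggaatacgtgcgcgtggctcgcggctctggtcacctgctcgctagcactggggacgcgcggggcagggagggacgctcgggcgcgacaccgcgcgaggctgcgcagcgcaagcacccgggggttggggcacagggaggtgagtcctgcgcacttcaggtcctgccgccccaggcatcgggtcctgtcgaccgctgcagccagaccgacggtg

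Of the 10 genes, 9 had a promoter in the RefSeq table, in 11 windows. Each element was found in 1 of the 11. Among all 33469 promoters of the table, 6.42% held CACGTG, 2.24% held TTANGTAA and 2.63% held TAGGTCA. A match is a run of letters and was not tested as a bound site.

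The comparison of the lines asks whether clock transcripts differ between the hyperactive line and wild type when both are kept sedentary. Of the 10 core clock genes, Npas2 passed the test and was lower in SPORTS, and the other 9 did not pass. Signals are log2 values relative to the 75th percentile of the processed signal of each array, which is 0 on this scale, and a difference is SPORTS minus wild type. In limma's moderated test, adjusted over all 20657 tested probes, 0 of the 10 genes were called higher and 1 lower at an adjusted p under 0.05. Over all genes tested 24.3% were called, 12.9% higher and 11.4% lower, so the share among the clock genes was not above that background. By probe, 1 of 16 tested probes was called, against 21.1% of all probes. The arrays of the lines did not overlap for 3 of the 10 genes, Cry2, Clock and Npas2, against 47.1% of all genes. The median difference was -0.11 over the 10 genes and 0.01 over all genes, with 8 clock genes below 0 and 2 above. The median size of the difference regardless of sign was 0.13 for the clock genes and 0.11 for all genes.

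**Figure D1:**
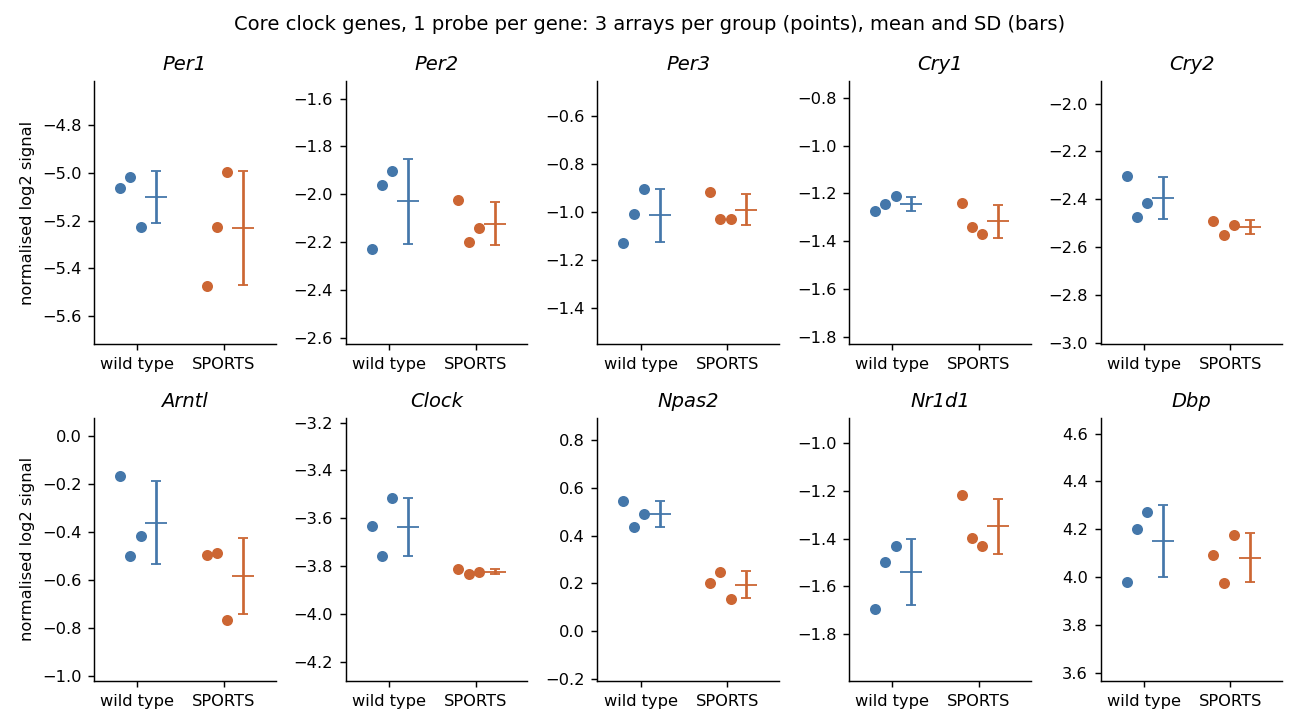
Normalised log2 signal of the 10 core clock genes, 1 panel per gene, each with the probe of highest mean signal. Points are single arrays (3 wild type, 3 SPORTS) in replicate order, bars are the mean and SD, and every panel spans the same range of log2 units. The groups stand apart most clearly for Npas2, where wild type arrays span 0.44 to 0.54 and SPORTS arrays 0.13 to 0.25.

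Npas2 belongs to the activating arm, where its protein can stand in for CLOCK. On its brighter probe (A_44_P945456) the wild type arrays read 0.54, 0.44 and 0.49 and the SPORTS arrays 0.20, 0.25 and 0.13. Every SPORTS array was below every wild type array, and the gap between the groups was wider than the range within either. Npas2 fell by 0.30 ± 0.05 (SE), a 1.23-fold difference (limma adjusted p = 0.0103). Its second probe (A_64_P024222) read -3.23, -3.12 and -3.22 in wild type and -3.42, -3.59 and -3.33 in SPORTS. These groups did not overlap either, and the difference of -0.25 ± 0.08 missed the threshold (limma adjusted p = 0.0692). With the mean of both probes the difference was -0.27 ± 0.03 (limma adjusted p = 0.00379). The call on the brighter probe was kept without any 1 array (adjusted p from 0.0219 to 0.0367). The call was lost when slide row was blocked, where the difference was the same size, -0.30 ± 0.07 (adjusted p = 0.0853). Wild type replicates 1 and 2 lay in row 1 of the slide and the other 4 arrays in row 2, so the blocked difference rests on 1 wild type array.

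In whole tissue, fewer cells of a type and less RNA per cell cannot be told apart. Markers of the striatum, a forebrain region, moved in the direction of Npas2: 9 of 9 tested were lower in SPORTS. Their summed signal, as a multiple of the 75th percentile, lay at 30.5 to 35.8 on the wild type arrays against 9.87 to 11.2 on the SPORTS arrays. One of them, the dopamine receptor gene Drd1, was well above background on 1 of 3 SPORTS arrays and on 3 wild type arrays. Of the cortex and hippocampus markers 1 of 4 tested was lower, and their sums were 2.44 to 2.57 against 2.24 to 2.36. Of the neuron markers 2 of 5 tested were lower and none higher, and their sums were 48.71 to 49.98 against 45.98 to 46.58, so that neuronal transcripts were present on all 6 arrays. Markers of astrocytes (3 of 6 higher, sums 61.2 to 64.4 against 71.7 to 73.7) and of meninges and fibroblasts (6 of 6 higher, 8.71 to 10.7 against 14.6 to 17.0) moved the other way. Of the latter, Lum was well above background on 2 of 3 wild type arrays and on 3 SPORTS arrays. Drd1 and Lum thus entered the test only through the group in which they were higher. Of the markers of oligodendrocytes and of endothelium 2 of 6 each were higher, and of those of microglia none of 6 was called. The part of these cell and region markers in the Npas2 difference was not tested.

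Among genes outside the clock lists, the 3 whose profile over the 6 arrays lay closest to that of Npas2 were Kcnt2, Lmo4 and Rnmt. They encode a sodium-activated potassium channel subunit, a LIM-only transcriptional regulator and an mRNA cap methyltransferase. The measure was the root mean square distance between log2 values after each gene's own mean was subtracted, and it was 0.019, 0.019 and 0.021. Lmo4 read 0.92, 0.84 and 0.87 in wild type and 0.62, 0.62 and 0.56 in SPORTS.

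The other activators, Clock and Arntl, had no call. Clock has 2 tested probes that differed from each other. On the brighter one (A_64_P147863) wild type read -3.63, -3.76 and -3.52 and SPORTS -3.81, -3.83 and -3.82. The SPORTS arrays lay within 0.02 of each other and below all wild type arrays, and the difference was -0.19 ± 0.07 (limma adjusted p = 0.103). It passed without wild type replicate 2 (adjusted p = 0.0381), and after quantile normalization or a median shift (adjusted p = 0.0473 and 0.0463). Blocking on slide row gave -0.31 ± 0.07 with no call. On the dimmer probe (A_64_P075337) the groups overlapped, with -4.71, -4.65 and -4.60 in wild type against -4.55, -4.87 and -4.53 in SPORTS. Its difference was 0.0045 ± 0.10, and its sign depended on the scaling.

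Arntl encodes a partner of both CLOCK and NPAS2. Its brighter probe (A_44_P214873) read -0.17, -0.50 and -0.42 in wild type and -0.49, -0.49 and -0.77 in SPORTS. Wild type replicate 1 was the highest of all 6 arrays and SPORTS replicate 3 the lowest, while the other 4 arrays lay between -0.50 and -0.42. The difference was -0.22 ± 0.12 (limma adjusted p = 0.238), and -0.13 both without wild type replicate 1 and without SPORTS replicate 3. On the second probe (A_64_P117345) wild type read -2.21, -2.35 and -2.49 and SPORTS -2.55, -2.62 and -2.58. These groups did not overlap, and the difference of -0.23 ± 0.08 did not pass (limma adjusted p = 0.0853), except without wild type replicate 3 (adjusted p = 0.0336). Blocking on slide row gave -0.09.

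**Figure D2:**
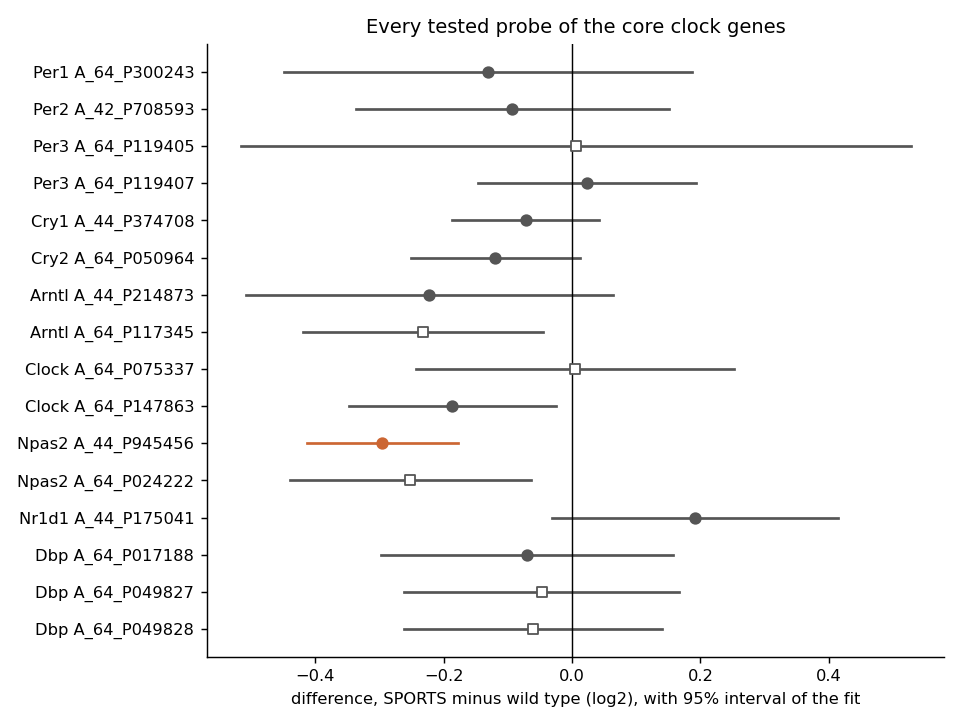
Difference between SPORTS and wild type on the log2 scale (x axis) for each of the 16 tested probes of the core clock genes. Filled circles are the probe that represents a gene, open squares are its other probes, lines are 95% intervals of the fit, and colour marks an adjusted p under 0.05. Npas2 A_44_P945456, at -0.30, is the coloured probe, and intervals of 12 of the other probes cross 0.

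The repressors of the loop, the period and cryptochrome genes, had no call. Per1, whose product also responds rapidly to light and glucocorticoids, was dim, with processed signals of 35.5 to 50.3, and was well above background on 2 wild type and 3 SPORTS arrays. Its normalised signal was -5.06, -5.02 and -5.23 in wild type and -5.47, -5.23 and -5.00 in SPORTS. The SPORTS arrays spanned 0.48, more than the difference of -0.13 ± 0.13 (limma adjusted p = 0.530). It was -0.01 without SPORTS replicate 1, -0.25 without SPORTS replicate 3 and -0.0072 when slide row was blocked. Per2, a central repressor, was printed as 10 spots of 1 probe and read -2.23, -1.96 and -1.90 in wild type and -2.03, -2.20 and -2.14 in SPORTS. Its groups overlapped and the difference was -0.09 ± 0.10 (limma adjusted p = 0.561). It was -0.19 without wild type replicate 1, -0.03 without wild type replicate 3 and -0.22 ± 0.13 when slide row was blocked. The SD over the replicate spots of 1 array was 0.05 to 0.09. The SD between arrays, each of 1 rat and averaged over its spots, was 0.18 in wild type and 0.09 in SPORTS. Per3, the period gene least needed for rhythm, was best measured by probe A_64_P119407. It read -1.13, -1.01 and -0.90 in wild type and -0.92, -1.03 and -1.03 in SPORTS, with a difference of 0.02 ± 0.07 (limma adjusted p = 0.847). A dimmer Per3 probe (A_64_P119405) had a difference of 0.01 ± 0.21, with wild type at -4.67, -4.36 and -3.80 and all SPORTS arrays between -4.29 and -4.24. Blocking on slide row, where the wild type level rests on replicate 3, the highest of its group, gave -0.47 ± 0.12 (limma adjusted p = 0.0964). The third Per3 probe was well above background on 2 arrays of each group and was not tested.

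Cry1 and Cry2 encode the cryptochromes, which repress the CLOCK and ARNTL pair together with the period proteins. Cry1 read -1.27, -1.25 and -1.21 in wild type and -1.24, -1.34 and -1.37 in SPORTS. SPORTS replicate 1 lay among the wild type arrays, and the difference was -0.07 ± 0.05 (limma adjusted p = 0.335). Cry2 read -2.30, -2.47 and -2.42 in wild type and -2.49, -2.55 and -2.51 in SPORTS. The lowest wild type array lay just above the highest SPORTS array, and the difference of -0.12 ± 0.05 did not pass (limma adjusted p = 0.176).

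Nr1d1, which encodes the repressor REV-ERB alpha, was the member with the largest positive difference. It read -1.69, -1.50 and -1.43 in wild type and -1.22, -1.40 and -1.43 in SPORTS. SPORTS replicate 3 and wild type replicate 3 were equal at this rounding, and the difference of 0.19 ± 0.09 did not pass (limma adjusted p = 0.198). Without wild type replicate 1 it was 0.11, and blocking on slide row gave 0.08.

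Dbp, the output factor, had 3 tested probes, each highest in wild type replicate 3. The brightest (A_64_P017188) read 3.98, 4.20 and 4.27 in wild type and 4.09, 3.97 and 4.18 in SPORTS. The other probes read 2.96, 3.09 and 3.27 against 3.06, 2.98 and 3.12, and 2.18, 2.29 and 2.48 against 2.25, 2.22 and 2.30. On each probe the groups overlapped, and the SPORTS arrays lay inside or within 0.01 of the wild type range. The differences were -0.07 ± 0.09, -0.05 ± 0.09 and -0.06 ± 0.08 (limma adjusted p = 0.647, 0.748 and 0.650). Blocking on slide row gave -0.19, -0.21 and -0.23, and none passed.

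A p that misses the threshold does not show equal levels, and the intervals show what range of differences each fit leaves. The 95% interval of the fit, not adjusted for the number of probes, ran from -0.30 to 0.16 for the brightest Dbp probe, from -0.34 to 0.15 for Per2, from -0.19 to 0.04 for Cry1 and from -0.03 to 0.42 for Nr1d1. Across the 16 tested probes the interval end farthest from 0 corresponded to a 1.44-fold difference, on the dimmer Per3 probe, and across the 10 genes to 1.42-fold, on Arntl. The narrowest limits were those of Cry1 and of the brighter Per3 probe, at 1.14-fold each. These limits hold for the fit without slide row. With it blocked some intervals reached farther, from -0.50 to 0.12 for the brightest Dbp probe, from -0.56 to 0.11 for Per2 and from -0.28 to 0.07 for Cry1. The farthest end was 1.73-fold, on the dimmer Per3 probe. Others reached less far: 1.32-fold in place of 1.33-fold for Nr1d1, and 1.22-fold in place of 1.34-fold for the second Arntl probe. The blocked interval excluded 0 for the dimmer Per3 probe (-0.79 to -0.15) and the dimmest Dbp probe (-0.40 to -0.05). It also excluded 0 for the brighter probes of Npas2 (-0.49 to -0.11) and Clock (-0.48 to -0.14). For all other tested probes it held 0.

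The arrays of a line also differed among themselves, as was seen after the values were in hand. Each rat had 1 array, so differences between rats and between labellings or hybridisations cannot be told apart. Wild type replicate 1 was the lowest array of its group for 11 of the 17 clock probes and the highest for 4. The 17 include several probes of the same gene and the Per3 probe that was not tested. The same count over all probes was not made, so a shift of the whole array cannot be told apart. Wild type replicate 1 was lowest on all probes of Dbp, Per2, Per3 and Nr1d1. It lay 0.14 to 0.17 below the group mean for Dbp and 0.20 below for Per2. On both Arntl probes it was highest, at 0.19 and 0.14 above the group mean. It was also highest for Cry2 (0.10 above) and on the brighter Npas2 probe (0.05 above). Wild type replicate 3 was highest of its group on all Dbp probes and on Per2 and Nr1d1, and lowest on the dimmer Arntl probe. On the brighter Arntl probe replicate 2 was lowest, at -0.14. In SPORTS no array showed this arrangement across all of these genes: Dbp was highest in replicate 3, Per2 and Nr1d1 in replicate 1. Per1, which was dim, did not share the wild type arrangement. Its wild type replicate 1 lay 0.04 above the group mean, and replicate 3 was lowest, at -0.12. These are descriptions of 3 rats a line, and wild type replicate 1 shared slide row 1 with replicate 2, which was near the group mean for Dbp.

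**Figure D3:**
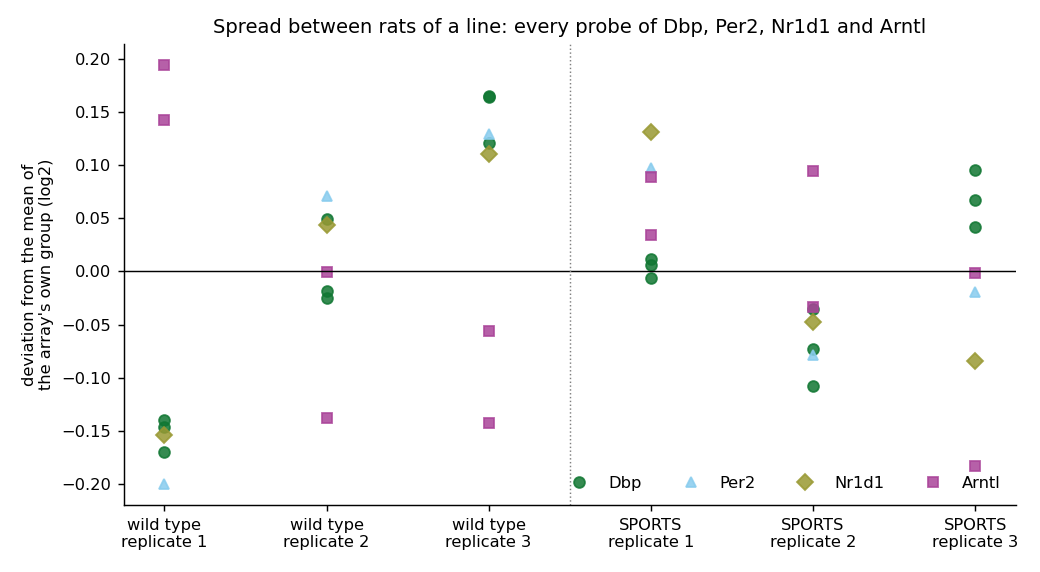
Deviation of each array from the mean of its own group on the log2 scale (y axis), for every probe of Dbp (circles), Per2 (triangles), Nr1d1 (diamonds) and Arntl (squares), by array. In wild type replicate 1 the Arntl probes lie at 0.14 and 0.19 while Dbp, Per2 and Nr1d1 lie between -0.20 and -0.14. Per1, at 0.04 in that array, and the other members are not drawn.

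Genes linked to the clock were examined in 6 lists, in which 54 distinct genes were tested, 4 were higher and 10 lower in SPORTS. That is 25.9% called, near the 24.3% over all genes. The stabilising loop and its PAR bZIP genes had no call among 3 tested genes, with a median of -0.02. Nr1d2, the paralogue of Nr1d1, differed by -0.07 ± 0.05 (limma adjusted p = 0.371) and Nfil3, a repressor at D-boxes, by -0.02 ± 0.13 (adjusted p = 0.921). Among 14 tested clock modifiers and additional loop genes, 1 was higher and 1 lower, with a median of 0.01. Timeless, which acts in DNA replication and has been linked to the clock, rose by 0.88 ± 0.06, 1.84-fold (limma adjusted p = 0.000750), with signals from -5.06 to -4.87 in wild type against -4.15 to -4.02 in SPORTS. The probe was dim in wild type, and normexp background correction gave 0.44 ± 0.04, still a call. Gsk3b, a kinase of several clock proteins, fell by 0.17 ± 0.04 (adjusted p = 0.0251). The clock kinase genes Csnk1d and Csnk1e were not called. The probes of Csnk1d differed in sign, at 0.04 ± 0.05 and -0.13 ± 0.04 (adjusted p = 0.600 and 0.0616).

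A further list held peptide, receptor and other genes linked to the suprachiasmatic nucleus, the master pacemaker in the hypothalamus. Of 9 tested, 2 were higher and 3 lower (median -0.33, against 0.01 over all genes). Avp, the vasopressin gene, read 0.60, 1.48 and 2.09 in wild type and -2.78, -2.86 and -2.67 in SPORTS. The lines were far apart on every array, and Avp fell by 4.17 ± 0.36 on the log2 scale (limma adjusted p = 0.00151). Much of brain Avp is made outside the pacemaker. Lhx1, a homeobox gene of pacemaker neurons and other regions, read -6.08, -5.04 and -5.17 in wild type and -3.28, -3.74 and -3.71 in SPORTS. It rose by 1.85 ± 0.30 (limma adjusted p = 0.0102), and by 1.53 without wild type replicate 1. It too was dim in wild type: normexp gave 0.95 ± 0.09, and with slide row blocked the call was lost (1.59 ± 0.43, adjusted p = 0.102). Vipr2, the receptor through which pacemaker neurons sense VIP, rose by 0.48 ± 0.11 (adjusted p = 0.0333), whereas Vip itself differed by 0.04 ± 0.04 (adjusted p = 0.5004). Syt10, a synaptotagmin gene expressed in the nucleus, fell by 0.47 ± 0.04 (adjusted p = 0.00130). The peptide gene Grp, named after its value was seen, fell by 0.33 ± 0.06 (adjusted p = 0.0164). Markers of the hypothalamus were lower for 3 of 7 tested, and their sums were 2.18 to 5.69 against 0.756 to 1.08. The 3 were Avp, Nkx2-1 and Six3. Nkx2-1 differed by -0.98 ± 0.26 (limma adjusted p = 0.0485) and Six3 by -1.28 ± 0.19 (adjusted p = 0.00754). Six3 entered the test only through wild type, with 3 arrays well above background against 1 in SPORTS. Avp itself made up most of the wild type sums: without it they were 0.663 to 1.42 against 0.610 to 0.927 and overlapped. Pomc, Agrp, Hcrt and Trh were not called. Of these, Trh read -2.66, -2.39 and -2.55 in wild type and -5.73, -3.98 and -3.57 in SPORTS. Its groups did not overlap, and the difference of -1.89 ± 0.55 missed the threshold (limma adjusted p = 0.0631). Of 7 tested cerebellum markers none was called, and their sums were 8.20 to 9.67 against 13.3, 9.33 and 8.93. SPORTS replicate 1 alone held the high value, with the Purkinje cell gene Pcp2 at -0.51 against -3.56 and -3.58 in the other SPORTS arrays, and Lhx1 was highest in that array too (1.70 without it, still a call). The part of these regions in the differences was not tested.

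Of 11 tested clock-controlled output genes, none was higher and 3 were lower (median 0.05). They were the glycogen synthase gene Gys2, the synaptic scaffold gene Homer1 and the cold-inducible RNA-binding gene Rbm3, which fell by 0.48 ± 0.12, 0.31 ± 0.04 and 0.38 ± 0.08 (limma adjusted p = 0.0425, 0.00543 and 0.0274). The Gys2 call was lost without any 1 of the 6 arrays (adjusted p from 0.0503 to 0.118), after quantile normalization (0.0738) and with normexp, which gave -0.19. Of 9 tested glucocorticoid-induced genes, which share a hormonal input with Per1, 1 was higher and 2 lower (median -0.07). The metallothionein gene Mt2A rose by 0.38 ± 0.08 (adjusted p = 0.0272) on this probe and by 0.42 ± 0.10 on its other probe. Klf9, a factor driven by glucocorticoids, fell by 0.22 ± 0.05 (adjusted p = 0.0390). The cell cycle inhibitor gene Cdkn1a fell by 0.16 ± 0.04 (adjusted p = 0.0405), while its other probe differed by -0.02 (adjusted p = 0.903). Its call passed in 4 of 16 alternatives and was lost without any 1 array (adjusted p from 0.0719 to 0.105). The other 6 tested genes of this list, Fkbp5, Sgk1, Tsc22d3, Zbtb16, Ddit4 and Errfi1, were not called. Of 8 tested activity-induced genes, none was higher and 1, the zinc finger gene Egr2, was lower by 0.52 ± 0.14 (adjusted p = 0.0441), with a median of -0.20. When slide row was blocked, Timeless, Avp, Syt10 and Homer1 passed and the count over the 6 lists was 4 in place of 14. Without 1 array it was 5 to 9. Of 16 alternatives, Grp passed in 10, Rbm3 and Mt2A in 9, and Gsk3b, Vipr2, Klf9 and Egr2 in 8. With 1 array left out, Gsk3b and Vipr2 passed only without SPORTS replicate 1, Klf9 only without wild type replicate 1 and Egr2 only without SPORTS replicate 2.

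**Figure D4:**
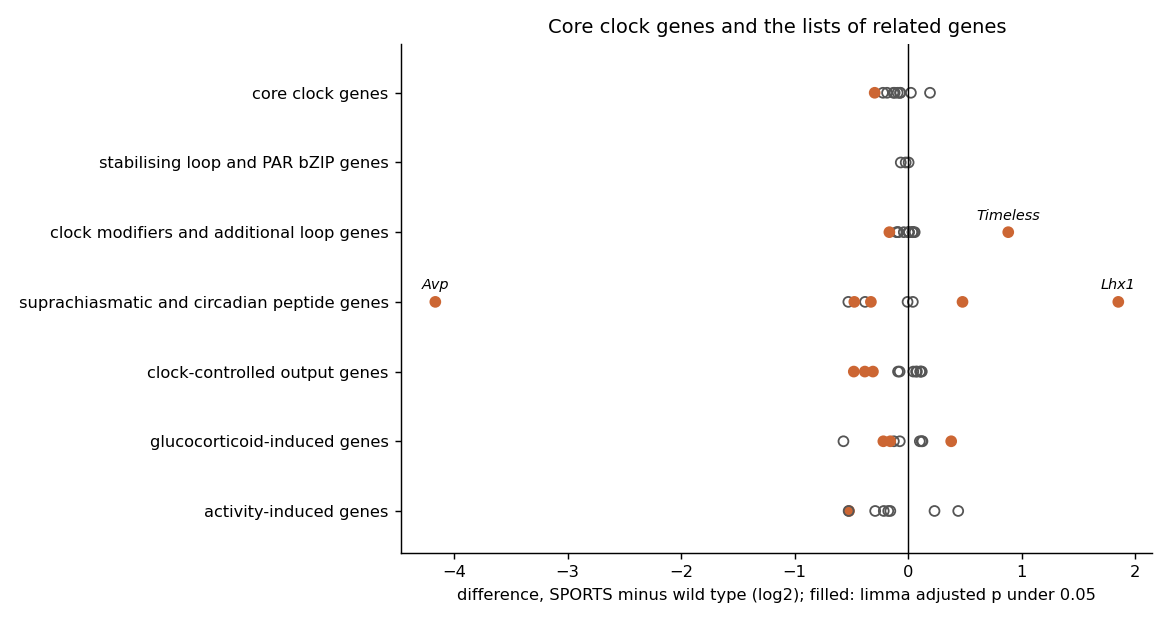
Difference between SPORTS and wild type on the log2 scale (x axis) for the core clock genes and each list of related genes (rows), 1 point per tested gene, filled where the limma adjusted p was under 0.05. The core clock genes lie between -0.30 and 0.19, while the suprachiasmatic list runs from -4.17 (Avp) to 1.85 (Lhx1).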

How the data were processed

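Brain RNA of 3 SPORTS and 3 wild type rats was measured on 6 single-colour Agilent arrays. Per the file headers, Agilent Feature Extraction (version 10.10.1.1) wrote the deposited intensity values, whose processed signal is corrected for background and spatial trend inside each array. A series-wide table deposited by the authors has those intensity values multiplied by 1 factor per array, with no reason stated in the labels or headers.

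Outlier-flagged spot values (3075) were left out, log2 values were averaged over the spots of a probe, and the 75th percentile of each array over its 58717 non-control spots was subtracted. That percentile lay between 1530 and 1628, no spot was saturated, and precision is limited by having 3 arrays a group. Probes entered the test when, in 1 group or both, every array had over 0.5 of the probe's spots marked well above background. Probes were named by transcript accession from a RefSeq gene list, and 13089 tested probes for 11032 genes had a name. The probe with the highest mean signal stood for a gene. SPORTS and wild type were compared by limma's two-sided moderated test (limma 3.58.1, R 4.3.3), with Benjamini-Hochberg adjustment over all tested probes. The fit was also run on simulated arrays with independent noise for each probe. Those arrays held no effect of slide row, so the run does not cover such an effect. Replicates are separate rats per the labels' design text.

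The members and lists were chosen with earlier results of these data known. Named were all members, up to 4 called genes of each list by size or, without a call, the 2 with the smallest p, and the 3 genes nearest to Npas2. Grp and the uncalled Csnk1d, Csnk1e, Vip and glucocorticoid-induced genes were named outside this rule. Promoter windows came from RefSeq assembly GRCr8; the array design was annotated on another build, so no probe positions are given. Alternatives were quantile normalization, a median shift, normexp, the deposited table, other filters, outlier spots kept, another variance model, the slide row, the mean of probes and leaving out each array.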

Additional observations from a re-analysis of the deposited data

How the results depend on the processing

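Over 17 alternatives, the member count was 1 in all but 5: it was 2 after quantile normalization, a median shift or leaving out wild type replicate 2, each adding Clock, and 0 when slide row was blocked or within slide row 2 alone. With 1 array left out the count was 1 to 2. The difference of the brighter Npas2 probe ran from -0.33 to -0.25 over its 16 alternatives. Its second probe passed after quantile normalization, a median shift and normexp (adjusted p = 0.0375, 0.0416 and 0.0480). The calls in the related lists (14) were 5 without the filter on dim probes, 4 when slide row was blocked, 4 within row 2 and 5 to 9 without 1 array.

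Signs near 0 were not stable. Per3 A_64_P119405, Per3 A_64_P119407, Clock A_64_P075337 and Nfil3 stood at -0.47, -0.085, -0.048 and 0.18 when slide row was blocked and within row 2. A median shift gave -0.026, -0.0079 and -0.027 for the Per3 and Clock probes in that order, and quantile normalization -0.033 for Per3 A_64_P119405 and -0.0022 for the Clock probe. With 1 array left out the 4 ran from -0.19 to 0.24, from -0.034 to 0.078, from -0.055 to 0.12 and from -0.13 to 0.11. The dimmer Dbp probes ran from -0.12 to 0.035 and from -0.13 to 0.021 and were above 0 without wild type replicate 3. The cause was not tested. Of the called genes, 53.1% were higher in SPORTS, and 43.1% after a median shift. Per1 was dim and was not tested with signal above background required on all 6 arrays. Within row 2 wild type is 1 array, assumed to vary like the SPORTS arrays. No paired analysis was possible because the labels number the rats of the lines differently and share fewer than 2 numbers.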
